A study of Mus musculus with 3 samples.

Results

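The regions described here are 1 Mb windows of the mouse autosomes that carry many H3K9me3 regions and few KAP1 peaks. A window was taken when it held 60 or more rows of the deposited H3K9me3 list and 8 or fewer rows of the deposited KAP1 list, with each row placed by its midpoint and windows counted from the first base of a chromosome. The windows from 18 to 25 Mb on chromosome 12 and from 61 to 68 Mb on chromosome 13 were left out. Of 2415 autosomal windows with a row in either list, 7 met the rule, and they held 619 of the 39526 H3K9me3 regions and 28 of the 19549 KAP1 peaks. The windows were chosen by these counts of both lists, so the high H3K9me3 count and the low KAP1 count are descriptions and not findings.

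The lists come from chromatin immunoprecipitation with sequencing (ChIP-seq) of proliferating C2C12 myoblasts, an established muscle precursor line from C3H mice. One library was made with a homemade rabbit antibody against KAP1, one with a commercial antibody against H3K9me3, and one with no antibody, which has no list analysed here. Whether the regions and peaks of these windows are also enriched without antibody was therefore not checked. There was 1 library per antibody, so no value carries a spread between replicates and no test between samples was possible. Read depth is unknown, a region missing from a list may lie below its detection limit, and neighbouring regions or peaks are not independent. Intervals given below are 95% intervals that cover counting error only, over regions, gaps between regions or KAP1 peaks. Positions are in the mm9 build, counted from 1. No sequence or gene annotation of that build was used here, so the windows are named by position.

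H3K9me3, histone H3 trimethylated on lysine 9, marks compacted and silenced chromatin and is bound by HP1 proteins. KAP1, also called TRIM28, represses transcription at sites to which zinc finger proteins with a KRAB domain recruit it, and it brings along SETDB1, a methyltransferase that writes this mark. Other methyltransferases, among them the SUV39H enzymes, write the mark without being recruited through KAP1. Zinc finger gene clusters and repeated elements are well-known carriers of both KAP1 and H3K9me3 in mouse cells.

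The 7 windows formed 4 stretches on 3 chromosomes. Chromosome 4 carried the window with the most H3K9me3 regions, whose first region started at 152038757 and whose last ended at 152986124, with 132 regions, 2 KAP1 peaks and 111.9 kb of the window covered by H3K9me3. Chromosome 2 carried 2 adjacent windows, from 178 to 179 Mb with 80 regions, 2 KAP1 peaks and 47.6 kb covered, and from 179 to 180 Mb with 73 regions, 2 KAP1 peaks and 61.1 kb covered. Both of these stretches stood near the distal end of their chromosome, 2.54 Mb and 1.74 Mb before the last base that either list covers on chromosome 4 and chromosome 2.

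Chromosome 15 carried the other 4 windows. The window from 87 to 88 Mb had 98 regions, 6 KAP1 peaks and the largest covered length of the 7 windows, 124.6 kb. Next to it, the window from 86 to 87 Mb had 81 regions, 6 KAP1 peaks and 94.3 kb covered. The window from 93 to 94 Mb had 94 regions, 7 KAP1 peaks and 77.4 kb covered, and the window from 94 to 95 Mb had 61 regions, 3 KAP1 peaks and 50.0 kb covered. Calls of both lists were frequent along this chromosome. Its median window held 27 H3K9me3 regions and 11 KAP1 peaks, against 13 and 7 in the median autosomal window. The part of that chromosome-wide level in the choice of these windows was not tested.

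**Figure D1:**
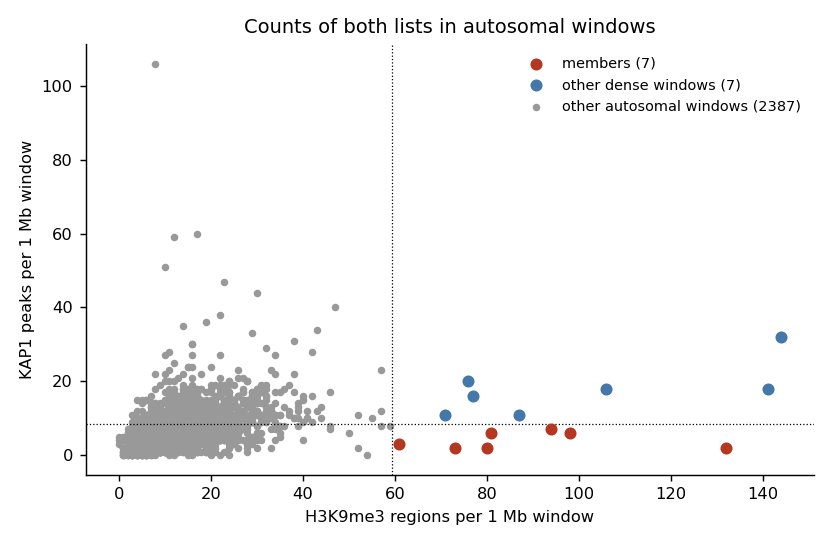
H3K9me3 regions (horizontal axis) and KAP1 peaks (vertical axis) in each 1 Mb autosomal window, with the left-out windows of chromosomes 12 and 13 not drawn and the dotted lines marking the rule. The 7 member windows stand at 61 to 132 H3K9me3 regions and 2 to 7 KAP1 peaks, and the 7 other dense windows at 11 to 32 KAP1 peaks.

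No member lay exactly on a threshold. The members closest to it were the window with 61 regions and the window with 7 KAP1 peaks. Just outside, chromosome 2 had 57 regions and 8 KAP1 peaks from 177 to 178 Mb, and chromosome 17 had 59 regions and 8 KAP1 peaks from 33 to 34 Mb. The first of these windows adjoins the chromosome 2 members, but few of its regions lay next to them. The 100 kb from 177.8 Mb held 2 regions and the 100 kb from 177.9 Mb held 4. The 100 kb from 177.5, 177.6 and 177.7 Mb held 11, 8 and 7. On chromosome 15 the window from 92 to 93 Mb, which adjoins the members there, had 71 regions but 11 KAP1 peaks. The stretch on chromosome 4 stood more alone, with 13 regions in the window before it and 31 in the window after it.

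A further 7 autosomal windows had 60 or more H3K9me3 regions and more than 8 KAP1 peaks, and they serve as the closest comparison below. They are called the other dense windows, and the remaining 2387 autosomal windows outside the left-out intervals are called the other autosomal windows. The members averaged 88.4 regions and 81.0 kb of H3K9me3 per Mb. The other dense windows averaged 100.3 regions and 152.9 kb per Mb. That mean was carried by 4 windows on chromosomes 10, 17 and 18 that covered 142.5 to 263.6 kb. The other 3, on chromosomes 4 and 15, covered 59.5 to 89.5 kb, inside the member range of 47.6 to 124.6 kb. The other autosomal windows averaged 14.3 regions and 14.5 kb per Mb.

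The H3K9me3 regions of the member windows were of ordinary median width. Of them, 8.56% were 2193 bp or wider, a width that 10.1% of all autosomal regions reached. The share was 17.0% in the other dense windows. The chromosome 15 stretch from 86 to 88 Mb held 30 of the 53 such member regions. The median width of member regions was 579 bp (interval 526 to 659), with an interquartile range of 353 to 1071 bp and a 90th percentile of 1886 bp. The other dense windows had a median of 624 bp and a 90th percentile of 3883 bp, and the other autosomal windows a median of 621 bp and a 90th percentile of 2202 bp. Both medians lay inside the interval of the member median. That interval leaves out differences between stretches, whose medians ran from 464 to 838 bp. The larger difference from the other dense windows was at the upper end of the widths. Most wide regions of the other dense windows came from the same 4 windows. No member region was wider than 9130 bp, against 23472 bp in the other dense windows and 36277 bp in the other autosomal windows.

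Widths differed among the 4 stretches. The chromosome 15 stretch from 86 to 88 Mb had the widest regions, with a median of 838 bp (interquartile range 441 to 1440). The chromosome 4 window had a median of 574 bp, the chromosome 15 stretch from 93 to 95 Mb one of 517 bp, and the chromosome 2 stretch one of 464 bp (interquartile range 303 to 843). The interquartile ranges overlapped, and the highest median, 838 bp, lay just below the upper quartile of 843 bp on chromosome 2. The difference between the stretches was not tested.

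The 5 widest member regions lay on chromosomes 15 and 2. The widest spanned 87227840 to 87236969 on chromosome 15, a width of 9130 bp with a deposited score of 667. It was followed by 179193567 to 179201643 on chromosome 2, with a width of 8077 bp and a score of 813, the highest score of the members. The third, at 93886919 to 93894102 on chromosome 15, was 7184 bp wide and held KAP1. The other two of the 5, at 86932829 to 86939339 and 87016221 to 87022451 on chromosome 15, were 6511 and 6231 bp wide, and of the 5 regions only the third held a KAP1 peak.

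The score that the authors deposited for H3K9me3 regions follows width closely, also in the member windows (Spearman's rho of 0.990 over 619 regions of 1 library). No source used here states what it measures, so it was compared within width classes. Below 500 bp the median score was 30.5 in the members, against 30 in the other dense windows and 30 in the other autosomal windows. From 500 to 1000 bp it was 58 in the members, 63 in the other dense windows and 59 in the other autosomal windows. Among regions of 2193 bp or more, the widest 10% of the list, it was 230 in 53 member regions, against 372 in 119 regions of the other dense windows and 299 in 3443 regions of the other autosomal windows. The regions of this class differ in width between the sets, and the part of that in the scores was not tested.

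Spacing set these windows apart from most of the genome by the rule itself, since 60 regions in 1 Mb cannot lie far apart. The median gap from the end of one member region to the start of the next was 4556 bp (interval 3885 to 5111), with an interquartile range of 1487 to 10353 bp. It was 2305 bp in the other dense windows and 31.1 kb in the other autosomal windows, counted within a window or between adjacent ones. A rule on density also favours short gaps over those of the other autosomal windows, so the gap classes are given as a description. Gaps under 1 kb made up 17.4% of member gaps (107 of 615), against 32.8% in the other dense windows and 11.0% in the other autosomal windows. Most member gaps, 70.7%, were between 1 and 20 kb, against 57.5% in the other dense windows and 30.5% in the other autosomal windows. The shortest member gap was 201 bp, and over the whole list it was 164 bp.

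**Figure D2:**
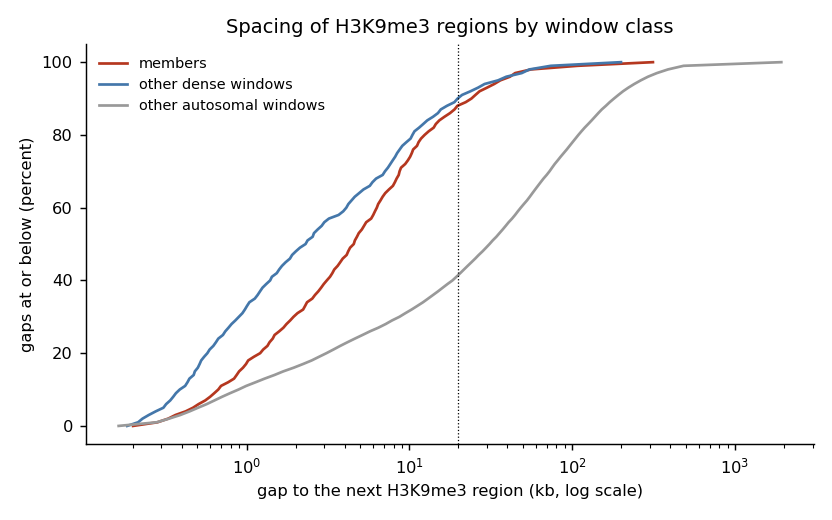
Cumulative percent of gaps (vertical axis) at or below a length in kb (horizontal log axis) between consecutive H3K9me3 regions, for the member windows, the other dense windows and the other autosomal windows; the dotted line marks 20 kb. The member curve lies to the right of the other dense windows at short gaps, with medians of 4556 bp and 2305 bp, and both lie far to the left of the other autosomal windows.

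The typical member gap was thus several kb, and the H3K9me3 list shows strings of narrow regions and not single wide domains. The caller of that list is not known, so whether it split wider domains was not tested. Merging regions within 1 kb gave a median width of 724 bp. The median gap of a stretch was 4197 bp on chromosome 4, 4678 bp on chromosome 2, 3971 bp on chromosome 15 from 86 to 88 Mb and 4900 bp on chromosome 15 from 93 to 95 Mb. These medians lay within the interquartile range of each of the other stretches. Medians of single windows varied more. On chromosome 2 they were 6719 bp from 178 to 179 Mb and 2697 bp from 179 to 180 Mb. The largest was 8812 bp, from 94 to 95 Mb on chromosome 15. Long gaps were unevenly placed. The longest was 313.2 kb on chromosome 2, 150.8 kb and 125.9 kb in the chromosome 15 stretches at 86 and 93 Mb, and 39.4 kb in the chromosome 4 window.

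Block structure was described by chaining H3K9me3 regions along the chromosome over gaps of at most 20 kb. Of the 619 member regions, 328 (53.0%, interval 49.1 to 56.9) lay in blocks of 20 or more regions, against a background of 4.55% of all autosomal regions. Dense windows hold more and larger blocks by their choice, and in the other dense windows the share was 53.1%, so nothing particular to the members is read from it. The member regions fell into 77 blocks, of which 9 had 20 or more regions, 22 had 5 to 19, 23 had 2 to 4 and 23 were single regions. The 9 large blocks spanned 103.7 to 366.3 kb, with a median of 174.1 kb, and 18.2% of their summed span of 1949 kb was covered by H3K9me3.

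The block with the most regions lay on chromosome 4, from 152038757 to 152405092, with 64 regions and 2 KAP1 peaks in 366.3 kb. The next, on chromosome 2 from 178997639 to 179309739, had 60 regions in 312.1 kb and no KAP1 peak. The third ran from 87062220 to 87395829 on chromosome 15, with 55 regions and 4 KAP1 peaks in 333.6 kb, and 26.1% of its span was covered. Blocks of 31 regions each lay on chromosome 15 from 93586011 to 93787305 (201.3 kb, 1 KAP1 peak) and on chromosome 4 from 152736178 to 152893974 (157.8 kb, 0 KAP1 peaks). By span, the fifth longest was a further block, from 86861949 to 87036093 on chromosome 15, with 24 regions in 174.1 kb and no KAP1 peak.

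Coverage differed more between blocks than region density did. The 55-region block of chromosome 15 and the 60-region block of chromosome 2 had 16.5 and 19.2 regions per 100 kb, and 26.1% and 17.0% of their span covered. In the 31-region block of chromosome 15 at 93.6 Mb, coverage was 8.43% at 15.4 regions per 100 kb. Regions inside the large blocks had a median width of 655 bp, against 516 bp for the 291 member regions outside them, with interquartile ranges of 361 to 1181 bp and 343 to 945 bp. Of the 53 member regions of 2193 bp or more, 40 lay inside large blocks, where 328 of all 619 member regions (53.0%) lay. The chromosome 15 stretch from 86 to 88 Mb held 30 of these 53 regions and 118 of these 328. The part of the stretches in the difference between regions inside and outside blocks was not tested.

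Neighbouring blocks were often separated by little more than the chaining limit. With gaps of up to 40 kb chained, 513 of the 619 regions (82.9%) fell into 7 blocks of 20 or more, and 3 of these took in most of a stretch. On chromosome 4, 1 block from 152038757 to 152986124 held all 132 regions of the window in 947.4 kb, with 50.3 kb free of H3K9me3 before it and 65.0 kb after it. On chromosome 15 a block of 131 regions ran for 871.3 kb from 86524526 to 87395829, and on chromosome 2 one of 125 regions ran for 964.6 kb from 178410929 to 179375562. The chromosome 15 stretch from 93 to 95 Mb gave no such block. It broke into blocks of 22, 39 and 38 regions, with smaller groups after them.

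**Figure D3:**
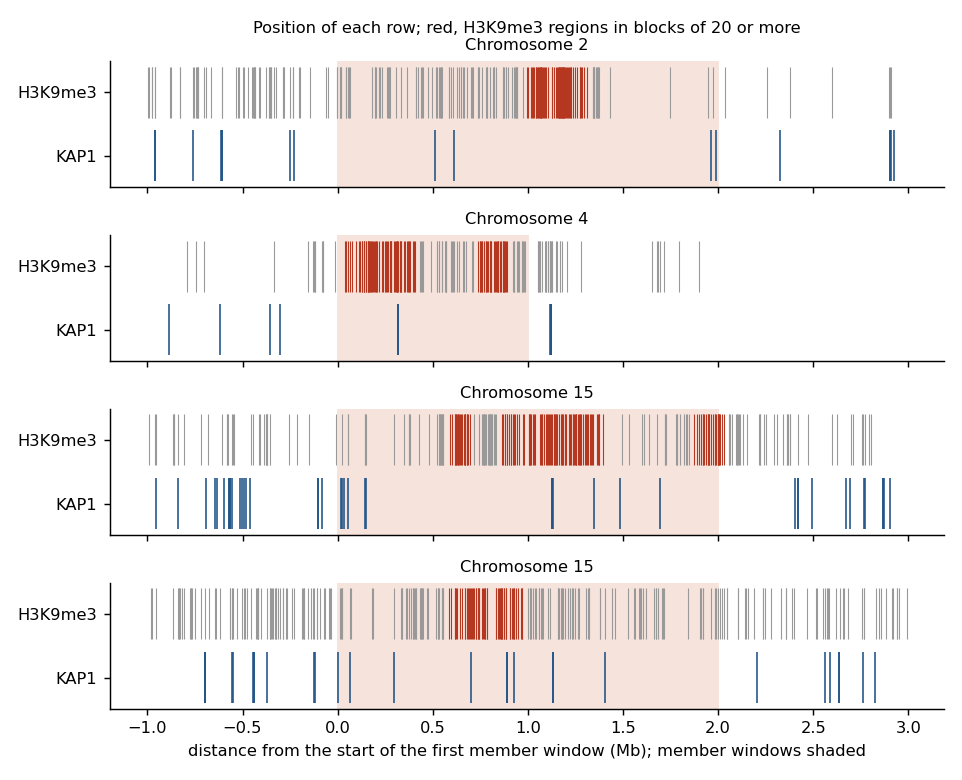
Start of every H3K9me3 region (upper ticks) and KAP1 peak (lower ticks) in the 4 stretches and 1 Mb on either side, by distance in Mb from the start of the first member window; shaded, member windows; red ticks, regions in the 9 blocks of 20 or more with a member region. Red ticks crowd into 1 block on chromosome 2, 2 on chromosome 4, 4 on the upper chromosome 15 map and 2 on the lower one.

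Counts in 100 kb bins showed where the density changed. On chromosome 2 the bins from 179.0 Mb held 21, 22, 15 and 11 regions, and the next 6 bins held 1, 0, 0, 1, 0 and 2. The 300 kb before 179.4 Mb therefore held 48 regions and the 300 kb after it 1, with no KAP1 peak on either side. This was the steepest border in the member stretches and ranked 9 among 24610 bin boundaries of the autosomes. On the left of these bins the change was smaller, at 179.0 Mb, with 30 regions in the 300 kb before it and 58 in the 300 kb after it. Farther left, bins held 8 to 11 regions between 178.4 and 179.0 Mb and 3 to 9 between 178.0 and 178.4 Mb.

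On chromosome 15 the dense part between 86.5 and 87.4 Mb had a border at each end. The 300 kb before 86.5 Mb held 7 regions and the 300 kb after it 44, and the 300 kb before 87.4 Mb held 49 and the 300 kb after it 6. Every bin between these borders held at least 10 regions, and the 5 bins before 86.5 Mb held 1 to 4. A second rise stood at 87.8 Mb, with 11 regions in the 300 kb before it and 36 in the 300 kb after it, and it led to a group that crossed the window's end at 88 Mb.

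On chromosome 4 density increased near the start of the member window, with 15 regions in the 300 kb before 152.1 Mb and 56 in the 300 kb after it. The matching decline lay outside the member window, at 153.2 Mb, with 33 regions before it and 2 after it. The dense interval thus extended beyond the right limit of the window. The chromosome 15 stretch from 93 to 95 Mb had no comparable border. One of its 2 largest changes, at 93.4 Mb, was 12 regions before and 34 after, and to the right the bins between 94.3 and 94.9 Mb held 1 to 6 regions each.

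**Figure D4:**
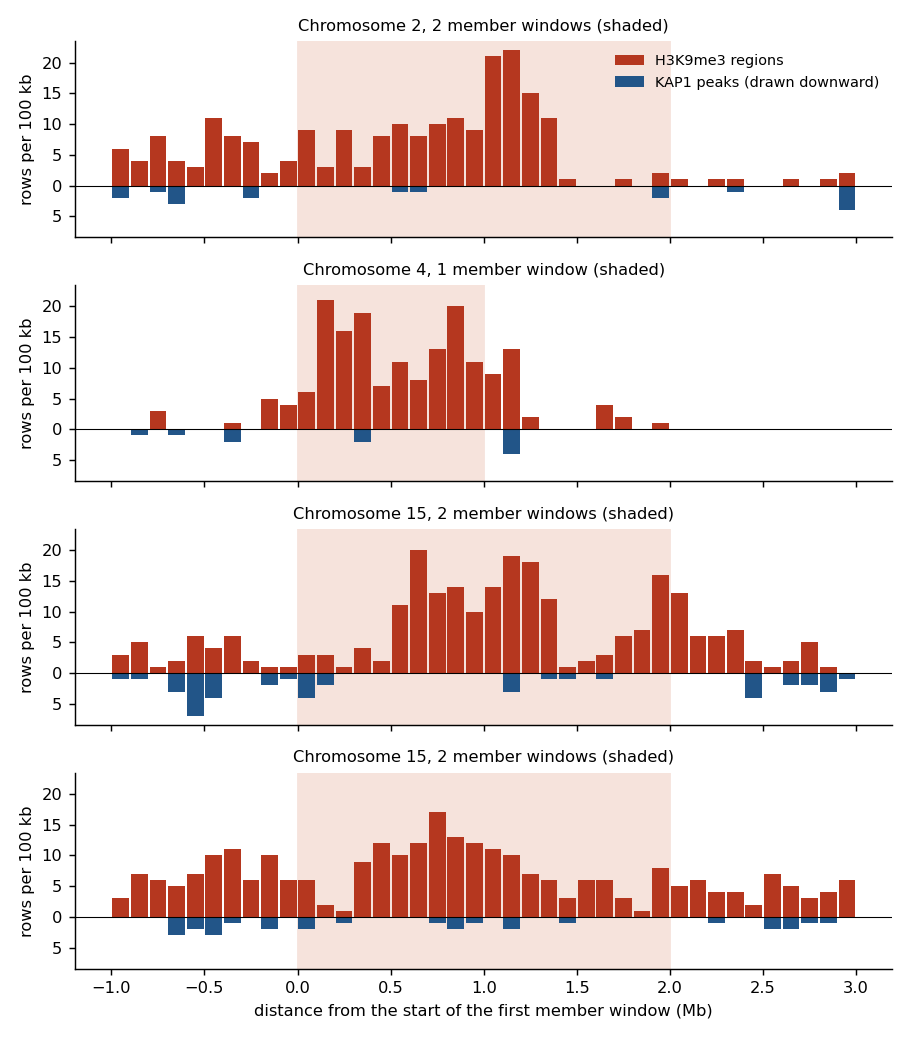
H3K9me3 regions (red, upward) and KAP1 peaks (blue, downward) per 100 kb bin in the 4 stretches, by distance in Mb from the start of the first member window; shaded, member windows. At the abrupt end 1.4 Mb into the chromosome 2 stretch, a bin of 11 regions is followed by one of 1, and the KAP1 bars within the shaded windows reach at most 4.

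Boundaries at which the 300 kb on one side held at least 20 regions more than the 300 kb on the other made up 27.1% of the 70 bin boundaries of the member windows. The share was 32.9% of 70 in the other dense windows and 0.247% in the other autosomal windows, against 0.585% over all autosomes. Steps of this size need a dense side, so the comparison that bears on the members is with the other dense windows, and the counts behind it were 19 and 23. Flanks of neighbouring boundaries overlap, so a single border can count more than once, as at 179.3 and 179.4 Mb on chromosome 2. These counts are therefore not numbers of separate borders. A stricter description took an end of a 20 kb-chained block of 20 or more regions as sharp when at least 6 regions lay within 100 kb inside it and no more than 1 within 100 kb outside it. By it 2 of the 18 ends of member blocks were sharp, against 11 of 88 over all autosomal blocks. They were the right end at 87395829 on chromosome 15, with 13 regions inside and 1 outside, and the left end at 152038757 on chromosome 4, with 11 inside and 1 outside. Most ends faced another block, since a median of 10 regions lay within 100 kb outside. The steep end on chromosome 2 was not sharp by this description, because a block of 10 regions lies between the large block and the empty sequence.

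KAP1 was sparse within the members by their choice. The rule also raises H3K9me3 cover, which averaged 81.0 kb per Mb in the members against 14.5 kb in the other autosomal windows. More cover favours overlap, so the share of overlapping peaks is a description, and the part of the cover in it was not tested. Of the 28 KAP1 peaks, 13 (46.4%, interval 29.5 to 64.2) shared at least 1 bp with an H3K9me3 region, against a background of 43.9% of autosomal KAP1 peaks. In the other dense windows the share was 51.6% (interval 42.9 to 60.1). The member interval includes both values. All 28 peaks lay within 20 kb of an H3K9me3 region. The share was 93.7% of peaks in the other dense windows and 72.8% over all autosomes. Regions are dense in the members by the rule, and the part of that density in this share was not tested. Some positions do lie farther away, since 26 of the 615 member gaps were over 40 kb. The 15 peaks without overlap lay 357 bp to 17.9 kb from the nearest region, with a median of 8.54 kb.

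The 28 member peaks had a median width of 651 bp, against 749 bp in the other dense windows and 649 bp in the other autosomal windows. The median deposited score was 108.9 in the members, 112.2 in the other dense windows and 106.7 in the other autosomal windows, with interquartile ranges of 86.4 to 228.1 in the members, 89.1 to 181.7 in the other dense windows and 84.0 to 168.6 in the other autosomal windows. The medians were close and the upper quartile was higher in the 28 member peaks, a difference with no test. No source used here states what this score measures.

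The 5 highest-scoring KAP1 peaks of the members all lay on chromosome 15. The first, at 93064721 to 93065218, had a score of 2099 and a width of 498 bp and lay 2.21 kb from the nearest H3K9me3 region. The second, at 86025003 to 86025933, had a score of 1223 and overlapped an H3K9me3 region of 375 bp, outside the dense part of its window. The third, at 93298304 to 93299847 with a score of 328.8, lay 1.03 kb from a region. The other two, at 87130203 to 87131490 (score 318.9) and 87124497 to 87126076 (score 308.4), overlapped regions of 5211 and 4543 bp in the 55-region block.

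Most KAP1 peaks within the large blocks sat on H3K9me3 regions, but few blocks and few regions held them. The 9 blocks of 20 or more held 10 KAP1 peaks, and 9 of these overlapped a region. Outside these blocks, 4 of the 18 peaks of the member windows did. The 9 overlapping peaks lay on 6 regions. They came from the block starting at 152038757 on chromosome 4 (2 peaks) and those at 87062220 and 93831015 on chromosome 15 (4 and 3 peaks). Over all 44 autosomal blocks of 20 or more regions, 66.0% of 144 KAP1 peaks overlapped. A larger part of the sequence is covered inside blocks, and the part of that in the difference was not tested. Another KAP1 peak lay within 10 kb of 13 of the 28 peaks (46.4%), against 59.5% of peaks in the other dense windows and 53.4% over all autosomes, and the member interval of 29.5 to 64.2 includes both. Density of KAP1 in the member blocks was 5.13 peaks per Mb, against 18.3 per Mb in all autosomal blocks, a difference that the rule itself favours.

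By stretch, on chromosome 15, 8 of 12 peaks in the stretch from 86 to 88 Mb and 3 of 10 in the stretch from 93 to 95 Mb overlapped H3K9me3. On chromosome 4 both peaks, at 152317169 to 152317895 and 152318948 to 152319641, overlapped the same region of 5434 bp. None of the 4 peaks on chromosome 2 did, and none of the 80 and 73 H3K9me3 regions of the 2 windows there held KAP1. These are few peaks per stretch, and whether the stretches differ was not tested.

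Seen from the H3K9me3 list, 10 of 619 member regions (1.62%, interval 0.880 to 2.95) held a KAP1 peak, against a background of 15.3% of autosomal regions and 6.84% in the other dense windows. The rule limits the number of KAP1 peaks, so a low share follows from it and nothing is read from it. Of the 10 regions, 7 held 1 KAP1 peak and 3 held 2. Of these 10 regions, 6 were 2193 bp or wider and the others 375 to 1579 bp. The median width was 3976 bp with KAP1, against 571 bp for the member regions without KAP1. In the other autosomal windows the medians were 1681 bp with KAP1 and 550 bp without. A wider region has more sequence to share with a peak, and the part of that in these medians was not tested.

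Wide regions without KAP1 were the common state in the members. Of the 53 regions of 2193 bp or more, 6 held KAP1 (11.3%, interval 5.29 to 22.6), a share that the limit on KAP1 peaks keeps low. The share was 22.7% (interval 16.1 to 31.0) of 119 such regions in the other dense windows and 63.9% (interval 62.2 to 65.5) of 3443 in the other autosomal windows. The intervals of the members and the other dense windows overlapped. Most of these 119 regions lay in 4 windows, with 34 on chromosome 10, 21 and 30 on chromosome 17 and 24 on chromosome 18, of which 8, 3, 3 and 6 held KAP1. The 3 windows with few wide regions held KAP1 in 3 of 3 and 2 of 4 on chromosome 4 and in 2 of 3 on chromosome 15, so the low share of the other dense windows came from those 4 windows. Among the 11 wide member regions from 86 to 87 Mb on chromosome 15 and the 5 on chromosome 2 none held KAP1, against 3 of 19 from 87 to 88 Mb on chromosome 15.

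**Figure D5:**
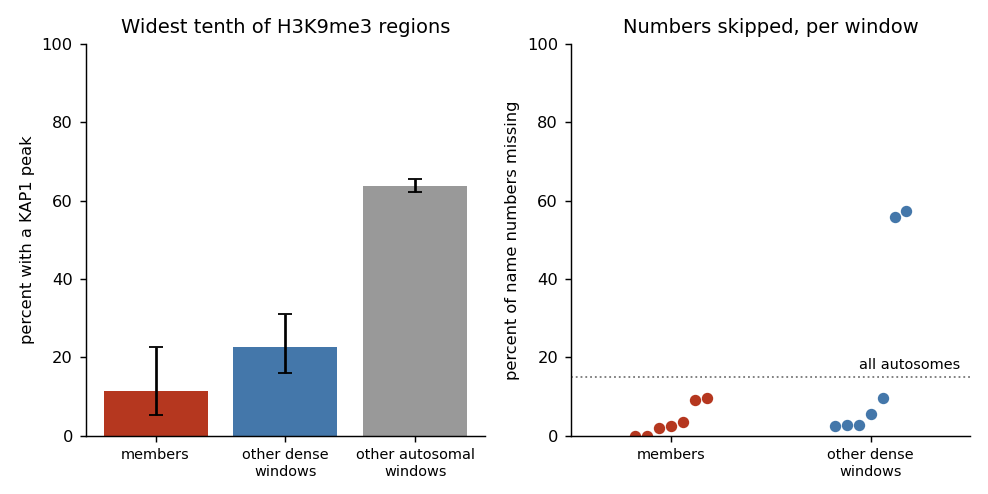
Left, percent of H3K9me3 regions of 2193 bp or more with a KAP1 peak, with 95% Wilson intervals, in the member windows, the other dense windows and the other autosomal windows; right, percent of numbers missing from the names of the H3K9me3 list in each member and each other dense window, with the value of all autosomes dotted. The left bars stand at 11.3%, 22.7% and 63.9%; on the right all 7 members and 5 of the 7 other dense windows lie below 15.1%.

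The sequence between one KAP1 peak and the next gives another view of the same sparseness. Between the peaks at 178.6 and 180.0 Mb on chromosome 2, 1352 kb passed without a KAP1 peak and held 109 H3K9me3 regions that covered 85.8 kb. On chromosome 4, 797.8 kb from 152.3 to 153.1 Mb held 95 regions. On chromosome 15, 977.7 kb from 86.1 to 87.1 Mb held 93 regions, with the largest covered length of the 3 intervals, 113.8 kb. No other interval between neighbouring KAP1 peaks on the autosomes held as many, the next having 78. The rule favours such intervals, so their rank is a description.

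The names of the H3K9me3 list carry running numbers that increase along each of the 19 autosomes, and some numbers are skipped between consecutive names. Between the member regions 23 of 638 numbers were missing (3.61%), against 35.9% in the other dense windows and 15.1% over all autosomes. The value of the other dense windows came from 2 adjacent windows on chromosome 4, from 145 to 147 Mb, with 57.3% and 55.9% missing. The other 5 ranged from 2.56% to 9.64%, and the 7 members from 0% to 9.71%, with 0 missing in the chromosome 4 window. In the KAP1 list 46.7% of numbers were missing between member peaks, against 41.5% in the other dense windows and 45.9% over all autosomes. No source used here states why numbers are skipped, or whether they stood for calls.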

How the data were processed

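Bowtie2 2.2.1 and the mm9 build are named in the submitters' processing notes. The authors deposited 1 list per antibody with a chromosome, start, end, name and score. KAP1 names have the form that MACS writes, per the file contents; no source used here names the caller of the H3K9me3 list, the settings of either caller or any use made of the library without antibody. The meaning of the deposited score is likewise not stated, so it was compared only within its own list.

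Rows were placed by midpoint. Blocks, borders and steps were computed as defined in the report, and the code was tested on simulated lists with planted blocks. Shares have Wilson intervals and medians order-statistic intervals. No test was run, because the members were chosen from the same lists and there is 1 library per antibody. The windows, the thresholds and the block and border limits were chosen with earlier results of these data known. All 7 windows are described. Large blocks are the first 5 by number of regions and the first 5 by span, and widest regions and highest-scoring peaks the first 5 by rank; neighbouring windows, steps, intervals between KAP1 peaks, width classes and name numbers were added after their values were seen. Alternatives concerned window limits, thresholds, chromosome 15, score, overlap, merging and chaining. Software was numpy 2.4.6, pandas 2.3.3, scipy 1.17.1 and matplotlib 3.10.9 under Python 3.11.15.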

Additional observations from a re-analysis of the deposited data

How the results depend on the processing

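With windows starting 500 kb further along, 10 windows met the rule, with 44 KAP1 peaks and 48.0% of regions in blocks of 20 or more; 7 of the 10 overlapped the 4 stretches. With at most 4 KAP1 peaks allowed there were 4 windows, 346 regions, 9 KAP1 peaks (22.2% overlapping), 0.289% of regions with KAP1, 44.8% in blocks and 1 sharp border. Without chromosome 15 there were 3 windows, 285 regions, 6 KAP1 peaks, 0.351% of regions with KAP1 and 1 sharp border. With only rows at or above the median score of their list, 290 regions and 16 KAP1 peaks were left, with a median width of 1110 bp, a median gap of 7940 bp, 10.7% in blocks and 1 sharp border. Merging regions within 1 kb gave a median width of 724 bp and a median gap of 6141 bp. A chain gap of 10 kb put 15.7% of regions in blocks with 0 sharp borders, and one of 40 kb 82.9% with 4; flanks of 200 kb left 0 sharp borders. The block share and the number of sharp borders thus depend on their limits, by construction. The other 30 of 57 values stayed within their interval or within 1.5 times the count. No paired analysis was possible because each antibody has a single library, so none could be left out either. Since read depth is unknown, a KAP1 peak missing from the list is not shown to be missing from the cells.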
